A study of Mus musculus with 14 samples.

Results

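Described here are 10 genes of mouse chromosome 9 (Nxpe4, Nxpe2, Pts, Tmprss13, Fam81a, Scn4b, Nt5e, Klhl31, Gramd1b and Ephb1) whose array signal in the left ventricle (LV) followed the knockout label. They were 10 of 19937 genes measured and 10 of the 1165 measured on chromosome 9, and 12 probe sets with a single gene symbol stood for them. The genes were chosen by their measured difference between CXCR5-/- and WT arrays, after AB and after Sham, so those differences are given below as a description and carry no test. For Ephb1 the genotypes overlapped after AB. The series held 14 Affymetrix mouse ST 1.0 arrays of male mice, 1 array per mouse, from CXCR5-/- mice after aortic banding (AB, n = 4), WT mice after AB (n = 4), CXCR5-/- mice after Sham operation (n = 3) and WT mice after Sham operation (n = 3). AB was a ligature around the ascending aorta, Sham animals had the same surgery without constriction, and hearts were taken 3 weeks later. The CXCR5-/- mice lacked the gene in every tissue, from an allele made in D3 embryonic stem cells, which come from a strain other than C57BL/6, in which a neomycin resistance gene took the place of the coding region, and the line was then backcrossed to C57BL/6 for 8 generations. The WT mice were bought C57BL/6 animals and not stated to be littermates, and no ages were given. Values are log2 signals from robust multi-array average, so a difference of 1 is a doubling, and arrays of separate mice are the replicates.

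CXCR5 is the receptor for the chemokine CXCL13 and guides B cells into lymphoid follicles. A mutation made in embryonic stem cells of one strain and bred onto another keeps a stretch of the donor strain's chromosome on either side of the target, because genes close to the target are seldom separated from it by recombination. Genes on such a stretch then carry donor alleles in every knockout animal, whatever the targeted gene does. In this design the loss of CXCR5 and any donor sequence kept with it occur in the same animals, and the 2 cannot be told apart.

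The sequence around the transcription start is one place where the reference and a donor strain could be set side by side. The reference letters are shown for the 4 genes of largest genotype difference that had an entry. The sources used here give no array probe sequences and no donor genome, so strain differences under the probes were not looked at. Whether a difference in signal is one in RNA was not tested. RefSeq held a window of 250 bases before to 50 bases after the start for 8 of the 10 genes (GRCm38.p6, a C57BL/6J assembly). The sequences run 5′ to 3′ on the gene's own strand, and capitals mark exact matches on either strand to the TATA box (letters TATAAA), the CAAT box (letters CCAAT) or the GC box (letters GGGCGG).
Nxpe4, chr9:48361791-48362090, plus strand: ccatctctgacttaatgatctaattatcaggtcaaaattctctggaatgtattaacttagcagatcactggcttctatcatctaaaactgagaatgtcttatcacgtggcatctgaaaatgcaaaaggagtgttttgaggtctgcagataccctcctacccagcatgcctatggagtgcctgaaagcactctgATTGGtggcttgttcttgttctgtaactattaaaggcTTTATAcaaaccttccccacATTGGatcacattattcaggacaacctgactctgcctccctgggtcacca
Pts, chr9:50528607-50528906, minus strand: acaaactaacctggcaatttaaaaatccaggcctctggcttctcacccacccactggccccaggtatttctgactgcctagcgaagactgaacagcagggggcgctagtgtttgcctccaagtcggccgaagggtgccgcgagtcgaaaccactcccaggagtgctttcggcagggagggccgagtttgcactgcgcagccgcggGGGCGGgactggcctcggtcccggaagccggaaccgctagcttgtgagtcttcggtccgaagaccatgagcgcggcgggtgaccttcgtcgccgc
Scn4b, chr9:45138374-45138673, plus strand: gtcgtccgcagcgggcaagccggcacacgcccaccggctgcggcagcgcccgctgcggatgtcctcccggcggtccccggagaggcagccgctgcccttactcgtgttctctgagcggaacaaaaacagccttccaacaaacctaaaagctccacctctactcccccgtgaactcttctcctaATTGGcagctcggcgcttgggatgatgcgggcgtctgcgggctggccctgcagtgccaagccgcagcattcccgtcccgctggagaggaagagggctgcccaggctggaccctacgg
Fam81a, chr9:70141508-70141807, minus strand: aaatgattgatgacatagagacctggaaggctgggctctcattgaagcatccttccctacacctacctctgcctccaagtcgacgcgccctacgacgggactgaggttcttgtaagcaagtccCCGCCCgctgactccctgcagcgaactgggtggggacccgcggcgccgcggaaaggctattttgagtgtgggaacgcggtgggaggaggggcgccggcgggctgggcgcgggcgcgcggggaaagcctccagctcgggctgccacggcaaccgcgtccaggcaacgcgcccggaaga
The Nxpe4 window held 1 TATA box and 2 CAAT box matches, a GC content of 42.3% and 1 CpG. The windows of Pts, Scn4b and Fam81a had GC contents of 62.7%, 66.3% and 65.7% with 25, 26 and 30 CpG, against a median GC content of 52.7% over all 32851 windows. Pts and Fam81a each held 1 GC box match and Scn4b held 1 CAAT box match. Over all windows, a TATA box was held by 13.6%, a CAAT box by 37.4% and a GC box by 35.7%, and a match is only a description of the sequence.

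The targeted gene was looked at first. Cxcr5 (probe set 10592888) read 4.43, 4.47, 3.97 and 4.21 on the CXCR5-/- AB arrays and 3.30, 3.03, 3.30 and 3.18 on the WT AB arrays. It read 4.09, 4.11 and 3.85 on the CXCR5-/- Sham arrays and 3.23, 3.23 and 3.24 on the WT Sham arrays. All 7 arrays labelled CXCR5-/- were above all 7 WT arrays, by 1.07 on the log2 scale after AB (SE 0.11, adjusted p = 1.27e-04) and by 0.78 after Sham (SE 0.13, adjusted p = 0.021), where adjusted p values are those of limma over all 19937 genes. The Sham call was lost without any 1 of the 6 Sham arrays (limma, highest adjusted p = 0.19). It was also lost without the 3 Sham arrays of highest Myl7 described below, where the log2 difference was 0.62. The AB call was kept in all 14 fits without 1 array (limma, highest adjusted p = 0.0011). The probe set was dim, at percentile 16.4 of probe sets with a single symbol by mean signal. The sources used here do not give whether it lies in the replaced coding region, so it does not check the labels, and genotypes are named below as the labels give them.

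The arrays carried high signals of ventricular muscle. The mean over 10 ventricular markers was 11.96 to 12.10 on CXCR5-/- AB, 11.93 to 12.04 on WT AB, 11.95 to 11.97 on CXCR5-/- Sham and 11.96 to 11.97 on WT Sham arrays. B cell markers were low, at a mean over 4 measured genes of 4.45 to 4.64 on CXCR5-/- AB, 4.34 to 5.01 on WT AB, 4.19 to 4.44 on CXCR5-/- Sham and 4.28 to 4.54 on WT Sham arrays. The atrial gene Myl7 was high on CXCR5-/- Sham replicates 1 and 2 (9.68 and 8.82) and on WT Sham replicate 1 (9.09), with 5.65 to 7.49 elsewhere, and the differences and calls that moved most without these 3 arrays are given with them below. The mean over 6 atrial markers ran from 6.91 to 8.33 on CXCR5-/- AB, 6.94 to 7.61 on WT AB, 6.97 to 8.05 on CXCR5-/- Sham and 6.67 to 7.77 on WT Sham arrays. The liver gene Alb varied between arrays of a group (4.43 to 9.73 on CXCR5-/- AB, 5.01 to 7.98 on WT AB, 3.98 to 5.17 on CXCR5-/- Sham and 4.39 to 9.14 on WT Sham arrays), and its part in the results was not tested. Another atrial gene, Bmp10, read 6.78 on CXCR5-/- AB replicate 4 and 3.02 to 3.32 on the other 13 arrays, and the fat gene Adipoq ran from 3.51 to 6.89. Without CXCR5-/- AB replicate 4, the genotype difference of each of the 10 genes moved by less than its residual SD, and for banding in CXCR5-/- hearts 4 of the 10 passed, against 5 with it. In whole tissue, fewer cells of a type and less RNA per cell cannot be told apart.

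Counted in measured genes along chromosome 9, 6 of the 10 genes lay close to Cxcr5. Scn4b was 19, Tmprss13 22, Nxpe4 44, Nxpe2 45 and Pts 64 genes to one side, and Gramd1b was 46 genes to the other. Fam81a (285 genes), Klhl31 (335), Nt5e (386) and Ephb1 (462) lay farther off on the side of Scn4b. Mean signals were lower in CXCR5-/- hearts after both operations for 6 genes (Nxpe4, Nxpe2, Pts, Scn4b, Klhl31 and Gramd1b). They were higher for 4 (Tmprss13, Fam81a, Nt5e and Ephb1), so both directions occurred near Cxcr5 and far from it. For Ephb1 the genotypes overlapped after AB (0.18, SE 0.10). Its second probe set was lower in CXCR5-/- hearts, with overlap (-0.14 after AB and -0.03 after Sham).

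**Figure D1:**
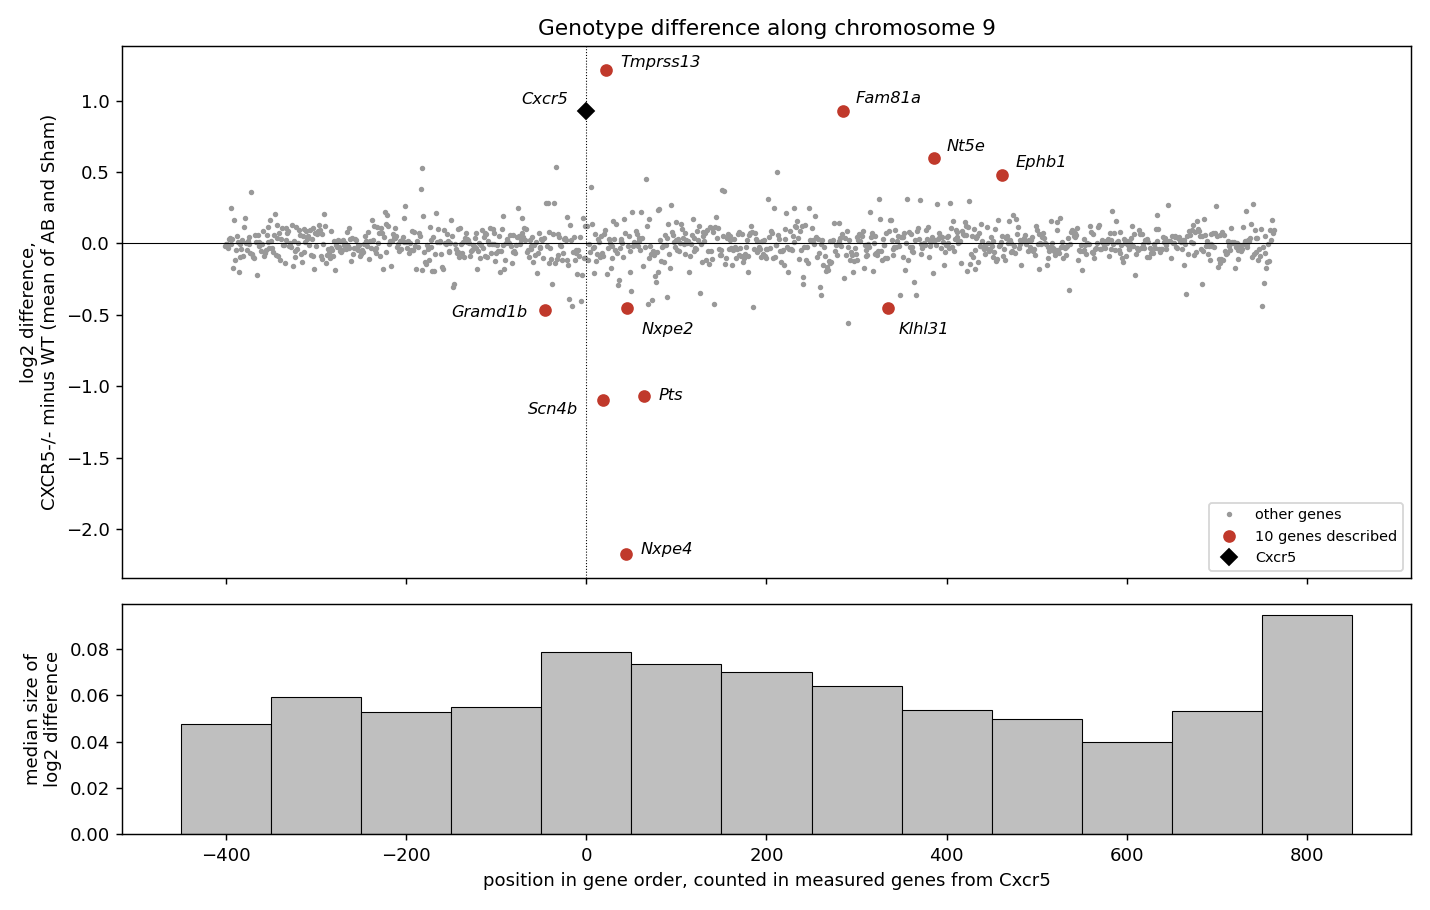
Upper panel, log2 difference of each of 1165 chromosome 9 genes (CXCR5-/- minus WT, mean of AB and Sham) against its place in gene order from Cxcr5; red points are the 10 genes and the black diamond is Cxcr5. Lower panel, the median size of that difference in bins of 100 places without those 11 genes, at 0.079 in the bin around Cxcr5; the last bin holds only 14 genes. Nxpe4 lies lowest at -2.17.

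Nxpe4 (probe set 10585068), of a family named for its neurexophilin and PC-esterase domains, had the largest genotype difference of the 10. It read 4.45, 4.22, 4.34 and 4.26 on CXCR5-/- AB arrays and 6.20, 6.33, 6.29 and 6.38 on WT AB arrays. After Sham it read 3.85, 3.89 and 4.13 on CXCR5-/- arrays and 6.20, 6.30 and 6.45 on WT arrays. The arrays formed 2 tight groups with an empty stretch of 1.74 between them, and the signal was 3.96-fold lower in CXCR5-/- hearts after AB (log2 difference -1.98, SE 0.09) and 5.13-fold lower after Sham (-2.36, SE 0.11). In CXCR5-/- hearts the gene was dim, at percentile 25.9 of all genes by group mean after AB and 19.9 after Sham. In WT hearts it was at percentile 58.9 after AB and 59.4 after Sham. Without the 3 Sham arrays of highest Myl7 the Sham difference was -2.24.

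Nxpe2 (probe set 10593198), a paralog that followed Nxpe4 directly in the gene order, differed in the same direction by less. It read 4.88, 4.92, 4.86 and 5.02 on CXCR5-/- AB arrays, against 5.36, 5.44, 5.67 and 5.34 on WT AB arrays. After Sham the CXCR5-/- arrays read 4.92, 4.87 and 5.001 and the WT arrays 5.27, 5.33 and 5.31. Here too all 7 CXCR5-/- arrays lay below all 7 WT arrays, by -0.53 after AB (SE 0.09) and -0.37 after Sham (SE 0.10). Because the genes are paralogs, their probe sets may share target sequence, which was not tested.

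Pts (probe set 10593325) encodes 6-pyruvoyltetrahydropterin synthase, an enzyme on the path to tetrahydrobiopterin, the cofactor of nitric oxide synthases and aromatic amino acid hydroxylases. It read 6.62, 6.72, 6.32 and 6.36 on CXCR5-/- AB arrays and 7.84, 7.63, 7.25 and 7.23 on WT AB arrays. In Sham hearts the values were 6.61, 6.49 and 6.41 for CXCR5-/- and 7.95, 7.45 and 7.58 for WT. The signal was 1.98-fold lower in CXCR5-/- hearts after AB (-0.98, SE 0.14) and 2.23-fold lower after Sham (-1.16, SE 0.16), with no overlap, although replicates varied more than for Nxpe4.

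Tmprss13 (probe set 10584870), a type II transmembrane serine protease, went the other way. It read 5.70, 5.54, 5.34 and 5.79 on CXCR5-/- AB arrays, against 4.74, 4.65, 4.65 and 4.71 on WT AB arrays. After Sham it read 6.36, 6.76 and 6.17 on CXCR5-/- arrays and 5.002, 4.72 and 5.01 on WT arrays. All CXCR5-/- arrays were above all WT arrays, by 0.91 after AB (SE 0.12, 1.87-fold) and 1.52 after Sham (SE 0.14, 2.87-fold), or 1.31 after Sham without the 3 arrays of highest Myl7.

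Scn4b (probe set 10584862), 3 places from Tmprss13 in the order, encodes the beta4 auxiliary subunit of voltage-gated sodium channels, which shapes channel gating in excitable cells. It read 4.69, 4.52, 4.82 and 4.92 on CXCR5-/- AB arrays and 5.08, 5.30, 5.85 and 5.59 on WT AB arrays. Without constriction it read 5.06, 5.26 and 5.06 on CXCR5-/- arrays and 6.60, 6.38 and 6.82 on WT arrays. Within each operation the genotypes did not overlap, with differences of -0.72 after AB (SE 0.14) and -1.47 after Sham (SE 0.17). Across operations they did, since CXCR5-/- Sham replicate 2 (5.26) was above WT AB replicate 1 (5.08).

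Gramd1b (probe set 10592471), on the other side of Cxcr5, encodes a protein of the endoplasmic reticulum that carries cholesterol from the plasma membrane. It read 6.63, 6.53, 6.38 and 6.42 on CXCR5-/- AB arrays and 6.83, 6.64, 6.93 and 6.88 on WT AB arrays. After Sham it read 6.64, 7.01 and 6.86 on CXCR5-/- arrays and 7.24, 7.49 and 7.57 on WT arrays. The genotypes were separated narrowly after AB (-0.33, SE 0.10) and more widely after Sham (-0.60, SE 0.12), and overlapped when the operations were joined.

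Farther along the chromosome, Fam81a (probe set 10594762) read 7.50, 7.64, 7.56 and 7.71 on CXCR5-/- AB arrays and 6.39, 6.68, 6.44 and 6.62 on WT AB arrays. The Sham arrays read 6.88, 7.27 and 7.20 in CXCR5-/- and 6.10, 6.44 and 6.45 in WT hearts. The CXCR5-/- arrays were all higher, by 1.07 after AB (SE 0.11, 2.10-fold) and 0.79 after Sham (SE 0.12, 1.73-fold).

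Nt5e (probe set 10587639) encodes CD73, the surface enzyme that turns AMP into adenosine. It read 7.49, 7.43, 7.55 and 7.25 on CXCR5-/- AB arrays and 7.05, 6.81, 6.59 and 6.75 on WT AB arrays. After Sham it read 7.27, 7.52 and 7.17 on CXCR5-/- arrays and 6.47, 6.85 and 6.96 on WT arrays. The CXCR5-/- arrays were higher by 0.63 after AB (SE 0.12) and 0.57 after Sham (SE 0.14), and only 0.115 separated the lowest CXCR5-/- array from the highest WT array. Without the 3 Sham arrays of highest Myl7, which leaves 1 CXCR5-/- Sham array, the Sham difference of Nt5e was 0.27.

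Klhl31, a kelch protein of striated muscle, was read by 2 probe sets. The brighter (10587262) read 9.55, 9.56, 9.69 and 9.73 on CXCR5-/- AB arrays and 10.16, 10.23, 9.99 and 10.18 on WT AB arrays. In Sham hearts the values were 9.52, 9.82 and 9.88 for CXCR5-/- and 10.01, 10.20 and 10.22 for WT. All CXCR5-/- arrays lay below all WT arrays, by -0.51 after AB (SE 0.09) and -0.40 after Sham (SE 0.11). The second probe set (10587255) differed in the same direction by -0.33 after AB (SE 0.09) and -0.22 after Sham (SE 0.11), with an overlap of the 7 and 7 arrays.

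Ephb1 encodes a receptor tyrosine kinase for ephrin-B ligands and was the gene farthest from Cxcr5. Its brighter probe set (10596095) read 5.44, 5.28, 5.51 and 5.64 on CXCR5-/- AB arrays and 5.28, 5.13, 5.37 and 5.38 on WT AB arrays. After Sham it read 5.97, 6.20 and 6.35 on CXCR5-/- arrays and 5.40, 5.48 and 5.27 on WT arrays. Only the Sham arrays were separated, by 0.79 (SE 0.12; 0.98 without the 3 arrays of highest Myl7), while after AB the genotypes overlapped at a difference of 0.18 (SE 0.10). The second probe set (10596115), at percentile 28.7, did not follow it, with -0.14 after AB and -0.03 after Sham, so the 2 probe sets of Ephb1 disagreed.

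**Figure D2:**
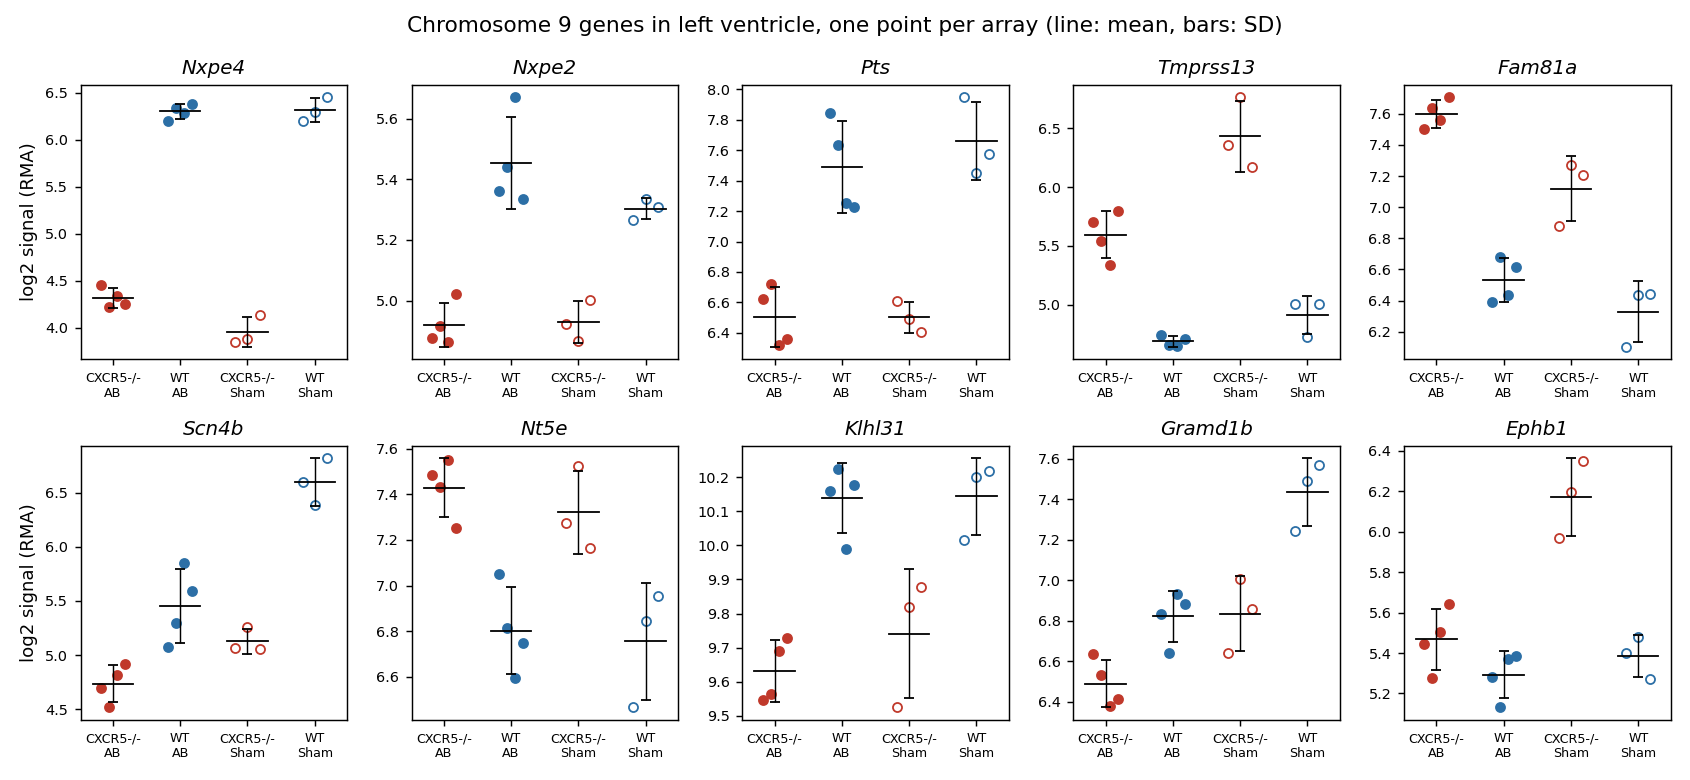
Log2 signal of the 10 genes on each of 14 arrays (points), with group means (lines) and SD (bars); CXCR5-/- in red, WT in blue, AB filled, Sham open, and each panel has its own axis. Nxpe4 shows the widest gap between genotypes (1.74), and Scn4b, Gramd1b and Ephb1 overlap across operations.

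**Figure D3:**
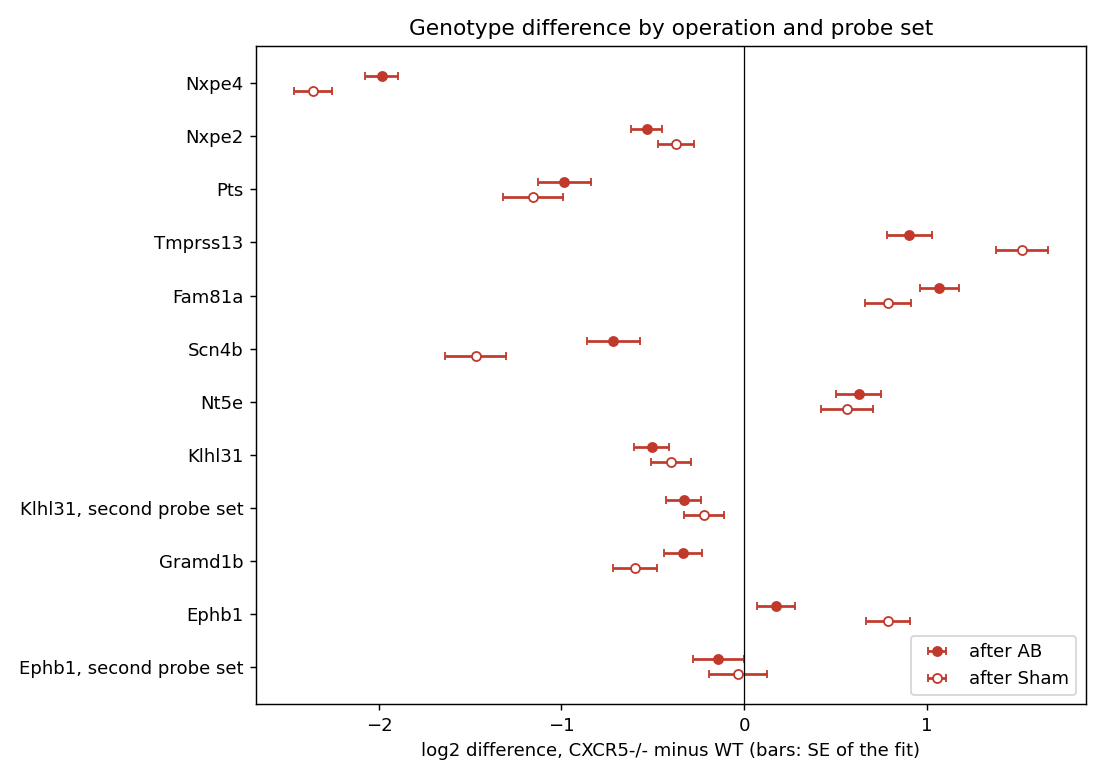
Log2 difference (CXCR5-/- minus WT) after AB (filled) and after Sham (open) for each of the 12 probe sets, with the SE of the fit. All 10 probe sets used for the genes have the same sign after both operations, and the second Ephb1 probe set lies near 0.

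Taken over both operations, 7 of the 10 genes had all 7 CXCR5-/- arrays on one side of all 7 WT arrays, where 0.12% of all genes (24 of 19937) did. After Sham alone the genotypes did not overlap for 10 of 10 genes (6.85% of all genes), and after AB for 9 of 10 (3.12%), Ephb1 being the exception. These counts restate the choice of the genes. Of the chromosome 9 genes ranked by size of the mean difference, with Cxcr5 left out, the 10 held ranks 1 to 6, 11 to 13 and 15. Genes outside the 10 held ranks 7 to 10 (Mindy2 at -0.55, Sorl1 at 0.53, Tirap at 0.53 and Calml4 at 0.50) and 14 (Il18 at 0.45). The last inside was Nxpe2 at -0.45, and Adpgk (-0.45) and Pdzd3 (-0.44) came next, so size did not set the 10 apart from the others.

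The other genes of the chromosome set the 10 in place, although the chromosome itself was singled out by these values. Of the 24 genes with no overlap, 13 were on chromosome 9 (1.12% of its genes), 10 were on other chromosomes (0.0535%) and 1 was among 82 genes given no chromosome. Besides the 7 described and Cxcr5, those on chromosome 9 were Sorl1 (34 genes from Cxcr5, 0.53, SE 0.08) and Pdzd3 (16 genes, -0.44, SE 0.08) on the side of Gramd1b, and Ppcdc (151 genes, 0.37, SE 0.06), Mto1 (348 genes, -0.36, SE 0.07) and Lsmem2 (536 genes, -0.33, SE 0.07) on the other side, as mean differences. No other chromosome had more than 0.271% of its genes without overlap. Of the genes on chromosome 9 other than the 10, Cxcr5 passed the test of genotype after both operations, Dixdc1 passed after Sham (-0.64, SE 0.10, adjusted p = 0.016) and Ppcdc passed after AB (0.47, SE 0.08, adjusted p = 0.038). Over all genes, 8 passed after Sham (0.0401%) and 9 after AB (0.0451%), and only Stk17b and Angptl1, both after AB, lay off chromosome 9. Without the 3 Sham arrays of highest Myl7, 1 gene passed after Sham and 5 after AB. With the replicate number as a block, 21 genes passed after AB, and 34 passed without CXCR5-/- AB replicate 4. In limma fits without 1 array, the Dixdc1 call was lost in 5 of 14 (highest adjusted p = 0.17), those without any WT Sham array or without CXCR5-/- Sham replicate 2 or 3. The Ppcdc call was lost in 8 of 14 (highest adjusted p = 0.12), those without any WT AB array, CXCR5-/- AB replicate 1, 2 or 3, or WT Sham replicate 2.

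Around the 10, median differences by genotype were small, although some genes differed by more. Of 1154 chromosome 9 genes other than the 10 and Cxcr5, 32 (2.77%) had a mean difference above 0.3 in size. Among the 18772 genes not placed on chromosome 9, 194 did (1.03%). Within 50 places of Cxcr5, the 95 other genes had a median size of the mean difference of 0.081, against 0.060 for 299 genes at 51 to 200 places, 0.053 for 760 genes farther off and 0.051 for 18690 genes on other chromosomes. None of the 95 passed the test of genotype after either operation alone. On the mean of both operations 2 of the 95 passed, where 0.0953% of all genes did, and these were also the 2 with no overlap. They were Sorl1 (limma, adjusted p = 0.0055) and Pdzd3 (limma, adjusted p = 0.027). Of the 1059 other chromosome 9 genes farther off, 3 passed on this mean. Pdzd3 did not pass in 11 of 14 fits without 1 array (highest adjusted p = 0.11), and Sorl1 passed in all 14. Neither passed without the 3 Sham arrays of highest Myl7, a fit that leaves 1 CXCR5-/- Sham array. There the mean difference was 0.51 for Sorl1, against 0.53 with them, and -0.37 for Pdzd3, against -0.44. With predicted genes passed over (Gm10677 and Gm8884 beside Nxpe4 and Nxpe2), the 18 measured genes nearest to the 10 had a median size of 0.088 (range 0.022 to 0.280), and none passed after either operation or was free of overlap. Scn2b, which encodes another sodium channel beta subunit and stands just before Scn4b, differed by -0.09 (SE 0.08), and Plet1 and Bco2 beside Pts by -0.16 (SE 0.08) and -0.02 (SE 0.08).

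Within groups, the 10 genes deviated in different ways from array to array. For the 45 pairs of genes, deviations from the group means over 14 arrays had a Pearson's r with a median of 0.13, between -0.65 (Pts and Scn4b) and 0.83 (Fam81a and Klhl31). By likeness over the 14 arrays, measured as Pearson's r of the values, which includes the genotype and operation differences, the gene outside the 10 nearest to Nxpe4 (-0.92), Nxpe2 (-0.88) and Klhl31 (-0.94) was Cxcr5 itself. Pts was most like Sorl1 (-0.94), Fam81a most like Ppcdc (0.93) and Nt5e most like Pdzd3 (-0.91), all on chromosome 9. Of the 10 likest genes, 7 were on chromosome 9 for Fam81a, 6 for Nxpe4 and 5 each for Nxpe2, Pts and Klhl31, where chromosome 9 held 5.84% of all genes. The genes were chosen by the genotype difference that enters this r, so these counts in part restate the choice and carry no test. Scn4b (Cd300lf, -0.95), Gramd1b (Ripor2, 0.93), Tmprss13 (Wdfy1, -0.88) and Ephb1 (Eif2s3y, -0.89) had their likest gene on another chromosome, and 1 to 3 of their 10 likest on chromosome 9.

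The response to banding was compared within each genotype (AB minus Sham). These responses use the same arrays as the genotype differences that chose the genes, so they are not free of that choice. In CXCR5-/- hearts 5 of the 10 genes passed, where 14.1% of all genes did, with 2 higher (8.28% of all genes) and 3 lower (5.86%). In WT hearts 2 of the 10 passed, both lower (4.22% of all genes, with 5.1% higher and 9.32% in either direction). Without the 3 Sham arrays of highest Myl7, where the lone CXCR5-/- Sham array is assumed to vary like the other groups, 1 of the 10, Ephb1, passed in CXCR5-/- hearts, and 844 of all genes did, against 2818.

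Tmprss13 fell to 5.59 ± 0.20 in CXCR5-/- AB hearts, against 6.43 ± 0.30 in CXCR5-/- Sham hearts (SD, n = 4 and 3; log2 difference -0.84, SE 0.13, adjusted p = 3.4e-04 by limma). In WT hearts it averaged 4.69 ± 0.05 after AB and 4.91 ± 0.16 after Sham (-0.22, adjusted p = 0.37 by limma). Without the 3 Sham arrays of highest Myl7, the CXCR5-/- response of Tmprss13 was -0.58 (limma, adjusted p = 0.076). By its brighter probe set, Ephb1 fell by 0.70 on the log2 scale in the CXCR5-/- group (limma, SE 0.11, adjusted p = 3.1e-04). It fell to values that overlapped those of WT AB hearts, and in WT hearts the response was -0.09 (limma, adjusted p = 0.73). The second Ephb1 probe set (10596115) changed by -0.21 in the CXCR5-/- group (SE 0.15), with overlap, and did not pass (limma over all single-symbol probe sets, adjusted p = 0.44). Averaging the 2 probe sets gave -0.46 (limma, adjusted p = 0.0059). For Tmprss13 and the brighter Ephb1 probe set, the Sham arrays of CXCR5-/- hearts stood above all other groups. Those high Sham arrays also enter the genotype differences that chose Tmprss13 and Ephb1. A fall with banding in CXCR5-/- hearts is thus in part built into the choice, and the adjusted p values of these falls do not account for it.

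With banding, Fam81a rose by 0.48 in the CXCR5-/- group (limma, SE 0.12, adjusted p = 0.0088) and had a WT response of 0.20 (adjusted p = 0.35). Nxpe4 rose by 0.36 in the CXCR5-/- group (limma, SE 0.10, adjusted p = 0.019), where its signal was dim and far below that of WT hearts. The WT response of Nxpe4 was -0.01 (limma, adjusted p = 0.96). The CXCR5-/- response without the 3 Sham arrays of highest Myl7 was 0.18 for Nxpe4 (limma, adjusted p = 0.60) and 0.40 for Fam81a (adjusted p = 0.16). The Nxpe4 call was lost without CXCR5-/- AB replicate 1, CXCR5-/- Sham replicate 1 or CXCR5-/- Sham replicate 2 (highest adjusted p = 0.088), and that of Fam81a without CXCR5-/- Sham replicate 1 (adjusted p = 0.061).

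Scn4b fell in WT hearts by 1.15 (SE 0.16, adjusted p = 1.5e-04), with no overlap between AB and Sham arrays. In CXCR5-/- hearts its response was -0.39 (SE 0.16, adjusted p = 0.11), again without overlap. Gramd1b fell in both genotypes. The decrease of Gramd1b had a log2 difference of -0.35 in the CXCR5-/- group (SE 0.11, adjusted p = 0.047) and -0.61 in the WT group (SE 0.11, adjusted p = 0.0019). The call of Gramd1b in CXCR5-/- hearts was lost in 8 of 14 fits that left out 1 array (highest adjusted p = 0.23), among them those without CXCR5-/- AB replicate 2, 3 or 4, and also without the 3 Sham arrays of highest Myl7 (-0.37, adjusted p = 0.20).

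Nxpe2, Pts, Nt5e and Klhl31 passed in neither genotype. The response of Nxpe2 was -0.01 in CXCR5-/- and 0.15 in WT hearts, that of Pts 0.00 in CXCR5-/- and -0.17 in WT hearts, that of Nt5e 0.11 in CXCR5-/- and 0.05 in WT hearts, and that of Klhl31 -0.11 in CXCR5-/- and -0.01 in WT hearts.

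The difference between the responses (CXCR5-/- minus WT) was 0.75 for Scn4b (SE 0.22), 0.38 for Nxpe4 (SE 0.14), 0.28 for Fam81a (SE 0.16), 0.27 for Gramd1b (SE 0.16), -0.61 for Tmprss13 (SE 0.19) and -0.61 for Ephb1 (SE 0.16). The other 4 genes lay between -0.16 and 0.17. Leaving out the 3 Sham arrays of highest Myl7, this difference was 0.36 for Nt5e, against 0.064 with them, 0.26 for Nxpe4, -0.40 for Tmprss13 and -0.80 for Ephb1. No gene of 19937 passed the test of this difference with limma (smallest adjusted p = 0.80), and 574 had an unadjusted p under 0.05, so none of the 10 is shown to respond differently by genotype.

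**Figure D4:**
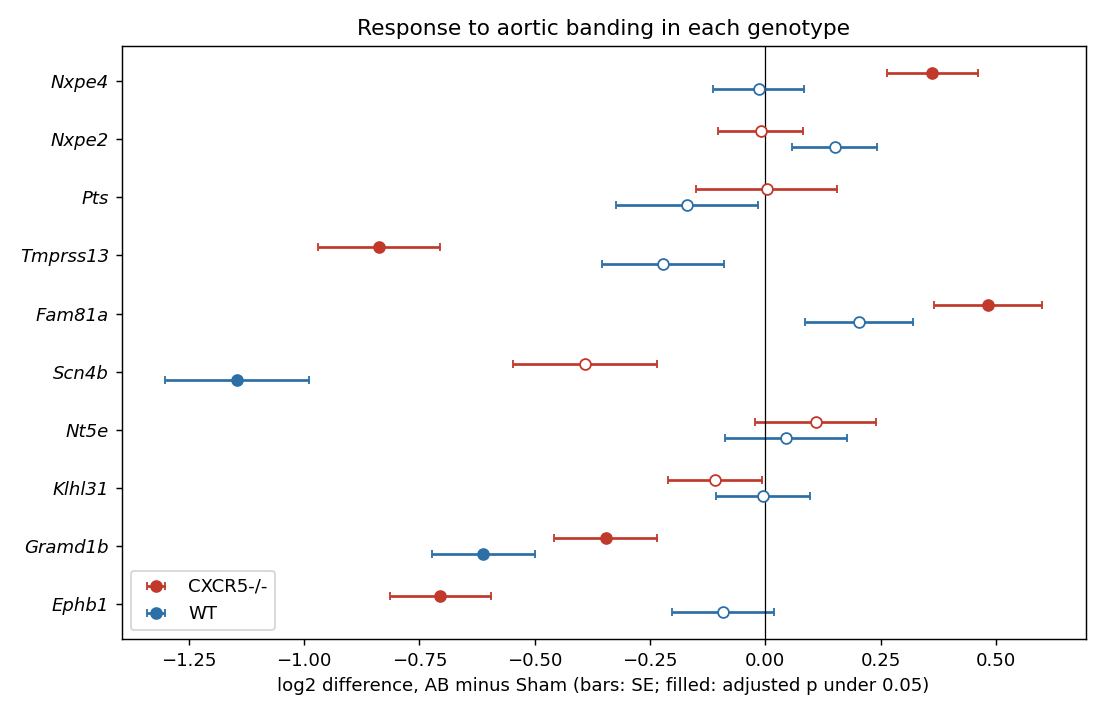
Log2 difference AB minus Sham in CXCR5-/- hearts (red) and WT hearts (blue) for the 10 genes, with the SE of the fit; filled points passed at an adjusted p under 0.05. Tmprss13 (-0.84) and Ephb1 (-0.70, brighter probe set) lie lowest in CXCR5-/- hearts, and Scn4b (-1.15) lowest in WT hearts.

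The wider families and pathways of these genes were counted from lists. Apart from the 10 genes, for which no genotype test is given, no gene of these lists passed between genotypes after either operation. Nxpe5, on chromosome 5, differed by -0.36 after Sham (limma, SE 0.15, adjusted p = 1.0), close in size to the -0.37 of Nxpe2. After AB the likeness did not hold. The difference of Nxpe5 was smaller in size there, since it rose more with banding in CXCR5-/- than in WT hearts (given below). That of Nxpe2 was larger, at -0.53. The responses to banding in these families were as follows, set against medians over all genes of -0.015 in CXCR5-/- and 0.011 in WT hearts. Of all genes, 8.28% passed as higher and 5.86% as lower in CXCR5-/- hearts, and 5.1% and 4.22% in WT hearts. The list counts were not tested against these shares. No list counts are given for the fit without the Sham arrays of highest Myl7.

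Of 4 measured Nxpe genes, 2 rose in CXCR5-/- hearts and none passed in WT hearts (medians 0.18 in CXCR5-/- and 0.17 in WT hearts). Besides Nxpe4 this was Nxpe5 (0.60, adjusted p = 0.0070, and 0.38 in WT hearts, adjusted p = 0.12). Of 11 measured genes of tetrahydrobiopterin synthesis, recycling and use, 2 rose in CXCR5-/- and 1 in WT hearts (medians 0.019 in CXCR5-/- and 0.044 in WT hearts). Agmo, a tetrahydrobiopterin-dependent enzyme that cleaves ether lipids, rose in both (0.88 in CXCR5-/- and 0.62 in WT hearts), and Pcbd1, which recycles the cofactor, rose in CXCR5-/- hearts (0.55, adjusted p = 0.018).

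Of 16 measured sodium channel subunits and partners, 1 rose and 3 fell in CXCR5-/- hearts and 2 fell in WT hearts (medians -0.11 in CXCR5-/- and 0.018 in WT hearts). Fgf13, which binds the channel's intracellular end, fell in both (-0.45 in CXCR5-/- and -0.60 in WT hearts), and Gpd1l fell in CXCR5-/- hearts (-0.48, adjusted p = 0.017). Scn4b itself had responses of -0.39 in CXCR5-/- and -1.15 in WT hearts. Of 9 measured genes of extracellular adenosine, 2 rose and 2 fell in CXCR5-/- hearts and 1 fell in WT hearts (medians -0.056 in CXCR5-/- and 0.045 in WT hearts). Adenosine kinase, Adk, fell in both (-0.44 in CXCR5-/- and -0.50 in WT hearts), and Nt5e, which makes adenosine, passed in neither.

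Of 21 measured Eph receptors and ephrins, 1 rose and 4 fell in CXCR5-/- hearts and 2 fell in WT hearts (medians -0.10 in CXCR5-/- and 0.030 in WT hearts). Epha4 (-0.93 in CXCR5-/- and -0.90 in WT hearts) and the ligand Efnb3 (-1.06 in CXCR5-/- and -0.56 in WT hearts) fell in both. Ephb1 passed in CXCR5-/- hearts by its brighter probe set and not by the other. Of 17 type II transmembrane serine proteases, 2 fell in CXCR5-/- hearts, Tmprss13 and Corin, and Corin alone fell in WT hearts (medians -0.039 in CXCR5-/- and -0.021 in WT hearts). Corin, which activates the natriuretic peptides in cardiac muscle, changed by -1.18 in CXCR5-/- and -1.21 in WT hearts.

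Of 9 kelch genes of muscle, 6 fell in CXCR5-/- and 4 in WT hearts (medians -0.37 in CXCR5-/- and -0.28 in WT hearts). Klhl33 (-1.55 in CXCR5-/- and -1.14 in WT hearts), Klhl38 (-1.10 in CXCR5-/- and -1.27 in WT hearts), Kbtbd12 (-0.74 in CXCR5-/- and -0.54 in WT hearts) and Klhl30 (-0.73 in CXCR5-/- and -0.48 in WT hearts) fell in both, whereas Klhl31 had the responses near 0 given above. Of 6 GRAM domain genes, 1 fell in CXCR5-/- and 2 in WT hearts (medians -0.079 in CXCR5-/- and -0.052 in WT hearts), namely Gramd1b and, in WT hearts, Gramd4 (-0.50, adjusted p = 0.039). Of the 2 Fam81 genes, Fam81a rose in CXCR5-/- hearts and none passed in WT hearts. Markers of other cells moved with banding in the same hearts. Fibroblast markers rose, 7 of 7 in CXCR5-/- and 4 of 7 in WT hearts, as did macrophage markers, 4 of 6 in CXCR5-/- and 2 of 6 in WT hearts, where 8.28% of all genes rose in CXCR5-/- and 5.1% in WT hearts, and their part in the responses above was not tested.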

How the data were processed

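Array signals of 14 left ventricles were grouped by genotype and operation as the sample labels state. RNA was isolated with an RNeasy kit per the labels, and with a total RNA system of another maker per the paper's methods. The deposited values are log2 signals, 1 per probe set and array, which the authors made with robust multi-array average (RMA), and they ranged from 0.742 to 13.5. The sources used here do not give the version or settings of RMA or the build of the array annotation. The number of arrays limits the precision. Arrays correlated at 0.975 to 0.993, and no pair shared more than 47 identical values.

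A single gene symbol was listed for 21640 of 34760 probe sets, several for 1321, and 11799 were not listed. The RefSeq gene table of GRCm38.p6 matched 21553 of the 21640 and gave the gene order. Where probe sets of a gene differed (954 of 19937 genes had more than 1), the brightest stood for it. No filter was set on dim probe sets.

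Comparisons were made with limma 3.58.1 (R 4.3.3) in 1 model of the 4 group means, with 10 residual and 7.13 prior degrees of freedom. Adjusted p values are Benjamini-Hochberg values over 19937 genes, and those under 0.05 passed. Significance analysis of microarrays, which the paper names with no settings, was not run. The steps were tested on simulated data. The 10 genes and the gene lists were chosen with earlier results of these data known, and no p is given for the genotype differences of the 10 genes. Genes named beside them were their measured neighbours (small RNA genes, olfactory receptors and predicted genes skipped), the likest gene over 14 arrays, other chromosome 9 genes that passed, and up to 4 genes per list that passed. Genes with no overlap, those ranked among or next to the 10, Stk17b, Angptl1 and the marker genes were named after their values were seen.

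Groups share replicate numbers. Between CXCR5-/- and WT after AB, deviations of same-numbered arrays had r of 0.125 to 0.220 across genes. For CXCR5-/- AB replicate 1 the same-numbered WT array had the highest r, and for replicates 2, 3 and 4 another WT array did. The labels give no pairing, and these values after AB do not show one. After Sham, r of same-numbered arrays reached 0.451 (given at the end). Whether arrays of the same number shared a batch was not tested. With the replicate number as a block, 21 genes passed between genotypes after AB, against 9 without it.

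Alternatives were a variance trend, array weights, a filter at the 30th percentile, quantile normalization, median centring, averaged probe sets, the replicate block, fits of the compared groups alone and each array left out. A fit without the 3 Sham arrays of highest Myl7, the difference of responses and the counts of the 10 genes that passed were added after seeing the data.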

Additional observations from a re-analysis of the deposited data

How the results depend on the processing

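The genotype differences of the 10 genes kept their direction under every alternative, and in the 280 values with 1 array left out each moved by less than the residual SD. Averaging its 2 probe sets, Ephb1 differed by 0.02 after AB and 0.38 after Sham. For AB in CXCR5-/- hearts, 2818 genes passed, against 4770 with array weights, 844 without the 3 Sham arrays of highest Myl7, and 1890 to 3028 with 1 array left out. Median centring gave 1346 higher and 1449 lower there, against 1650 and 1168. For AB in WT hearts, 1858 passed, against 3408 with array weights and 1002 to 2120 with 1 array left out. Between genotypes after Sham, 8 passed, against 39 with array weights, 1 without the 3 Myl7 arrays and 3 to 8 with 1 array left out. After AB, 9 passed, against 4 in a fit of the compared groups alone, 5 without the 3 Myl7 arrays, and 4 to 34 with 1 array left out, the highest without CXCR5-/- AB replicate 4.

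Of the 10 genes, 5 passed for AB in CXCR5-/- hearts, against 1 without the 3 Myl7 arrays and 3 to 5 with 1 array left out, and 2 passed in WT hearts in every such fit. Nxpe4 missed the threshold under median centring (adjusted p = 0.054) and Gramd1b in the fit of the compared groups alone (adjusted p = 0.051), where Scn4b passed (adjusted p = 0.032). Small responses changed sign, Pts in CXCR5-/- hearts to -0.029 with quantile normalization and -0.041 with median centring, Nt5e in WT hearts to -0.030 with array weights and -0.10 without the 3 Myl7 arrays, and Klhl31 in WT hearts to 0.00800 with quantile normalization. With 1 array left out, Nxpe2 (-0.044 to 0.026) and Pts (-0.068 to 0.065) in CXCR5-/- hearts, and Nxpe4 (-0.072 to 0.053), Nt5e (-0.10 to 0.15) and Klhl31 (-0.070 to 0.044) in WT hearts, changed sign, as did the response difference of Nt5e (-0.036 to 0.21). The cause was not tested.

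With the replicate block, 3623 genes passed for AB in CXCR5-/- hearts, 2636 for AB in WT hearts, 8 between genotypes after Sham and 21 after AB. Under the block Scn4b passed in CXCR5-/- hearts (adjusted p = 0.029) and Gramd1b did not (adjusted p = 0.057), and it changed no other call of the 10 genes. Same-numbered arrays of CXCR5-/- and WT after Sham had r of 0.026 to 0.451, all positive, as after AB. For CXCR5-/- Sham replicates 1 and 3, but not 2, the same-numbered WT array had the highest r. For AB against Sham within a genotype, r ran from -0.109 to 0.264. The labels give arrays a shared number and no pairing.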
